A study of Mus musculus with 8 samples.

Results

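Insulin-like growth factors are small secreted hormones that bind a receptor tyrosine kinase on the cell surface and drive growth and survival. Most of the ligand outside cells is held by a family of secreted binding proteins, which keep it from the receptor, carry it or release it when a protease cuts them. The 9 genes described here are 2 ligands (Igf1 and Igf2), the receptor Igf1r and 6 binding protein genes (Igfbp2, Igfbp3, Igfbp4, Igfbp5, Igfbp6 and Igfbp7). They were taken by name from the 52636 genes of the deposited table, and each name matched 1 row. They were selected on CPM values of these same libraries that were already known, so their levels and differences are given as a description. No test of them is read.

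The series measured RNA in 8 libraries from wild-type mouse esophageal organoids, 2 for each of 4 treatments. Digested esophagi were seeded as single cells in matrigel under KSFM medium and cultured for 13 days, with new medium every 2 days. The agents were present for 72 h and were given fresh every 24 h. The control group received A8301, an inhibitor of the TGFb type I receptors, at 500 nM, and is called the inhibitor group. The second group received BMP4 at 20 ng/ml on top of the inhibitor, the third TGFb1 at 1 ng/ml, and the fourth TGFb1 with BMP4 at these doses. The labels list no inhibitor for either TGFb1 group, so wherever either of them is set against a group with A8301, the presence of TGFb1 and the absence of A8301 cannot be told apart. They do not say whether replicates 1 and 2 came from separate mice, so the p-values below measure the spread between these libraries, which may be technical. The sources used here give no mouse strain, age or sex.

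Levels are CPM, the reads of a gene scaled to a library total that is the same for every library. The read counts behind them had been scaled to about 20000000 per library before deposit, so the true depth is unknown and no counting error is given. The libraries had 23718 to 27476 genes with a value above 0, and 1 unit of the scaled table is 0.05 CPM. The 8 epithelial markers, keratins and Trp63 among them, summed to between 11798 and 21644 CPM, and none of them was at 0. A list of 14 fibroblast markers summed to 27.8 and 114 CPM in inhibitor replicates 1 and 2, 126 and 491 with BMP4 + inhibitor, 1360 and 4742 with TGFb1, and 1462 and 6859 with TGFb1 + BMP4. No fibroblast marker was at 0 in all libraries, and only Clec3b stayed below 1 CPM throughout. A list of 9 skeletal muscle markers summed to 9.7 and 51.9, 41.4 and 171, 54.7 and 236, and 85.2 and 511 CPM in the same order, with only Pax7 below 1 CPM throughout. Both lists were higher in replicate 2 in 4 of 4 groups. So was a list of 6 endothelial markers, at sums of only 1.3 to 5.7 CPM. Smooth muscle and pericyte markers were higher in replicate 2 in 3 of 4 groups. The Schwann and glia list was so in 2, and the epithelial and immune lists in 1 each. In bulk RNA, more cells of a type and more RNA per cell cannot be told apart.

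The promoters of 4 binding protein genes are shown because Igfbp2, Igfbp3 and Igfbp7 had the widest spans of level among the 4 treatments and Igfbp5 lies beside Igfbp2. Each window runs from 250 bases before to 50 bases after the annotated start, 5′ to 3′ on the gene's own strand, from RefSeq on build GRCm38.p6. Capitals mark CAGAC or its complement, the core of the element that SMAD proteins bind. All 9 genes had at least 1 window in that set of 32851.
Igfbp2: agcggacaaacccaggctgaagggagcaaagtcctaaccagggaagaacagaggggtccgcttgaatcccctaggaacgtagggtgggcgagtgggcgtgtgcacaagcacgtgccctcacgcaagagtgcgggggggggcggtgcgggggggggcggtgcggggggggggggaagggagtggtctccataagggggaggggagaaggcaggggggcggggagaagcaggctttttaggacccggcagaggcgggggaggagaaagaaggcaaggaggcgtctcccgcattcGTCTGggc
Igfbp3: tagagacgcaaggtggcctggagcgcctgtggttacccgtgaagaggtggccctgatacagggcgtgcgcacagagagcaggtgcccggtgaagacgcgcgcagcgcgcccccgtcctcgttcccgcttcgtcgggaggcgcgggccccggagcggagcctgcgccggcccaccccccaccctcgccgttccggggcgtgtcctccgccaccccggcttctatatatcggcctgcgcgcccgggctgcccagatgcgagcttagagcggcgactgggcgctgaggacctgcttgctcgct
Igfbp5: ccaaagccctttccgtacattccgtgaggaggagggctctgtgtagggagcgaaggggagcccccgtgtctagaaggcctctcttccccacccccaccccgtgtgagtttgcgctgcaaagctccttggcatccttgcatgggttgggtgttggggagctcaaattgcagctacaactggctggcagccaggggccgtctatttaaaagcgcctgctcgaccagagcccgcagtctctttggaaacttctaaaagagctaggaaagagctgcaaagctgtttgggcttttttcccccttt
Igfbp7: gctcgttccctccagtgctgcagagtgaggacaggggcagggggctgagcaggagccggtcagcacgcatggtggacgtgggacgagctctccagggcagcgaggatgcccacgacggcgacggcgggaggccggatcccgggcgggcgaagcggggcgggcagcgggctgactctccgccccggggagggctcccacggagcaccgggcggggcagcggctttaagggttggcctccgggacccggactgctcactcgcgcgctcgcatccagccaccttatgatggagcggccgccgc
These windows are chr1:72824230-72824529 on the plus strand for Igfbp2, chr11:7213874-7214173 on the minus strand for Igfbp3, chr1:72874816-72875115 on the minus strand for Igfbp5, and chr5:77407996-77408295 on the minus strand for Igfbp7. Both strands were searched for CAGAC, for the GC-rich SMAD element GGCGCC, for the SMAD palindrome GTCTAGAC, which does not itself contain CAGAC, and for TATAAA. These occur in 49.6%, 11.9%, 0.213% and 13.6% of all windows of this length. The first Igfbp2 window, printed here, holds CAGAC 1 time, starting 42 bases after the start, and the window of a second annotated Igfbp2 start, chr1:72825137-72825436, holds it 2 times. Igfbp3, Igfbp5 and Igfbp7 hold none of the 4 motifs in this window, which says only that these letters are not there. GC content is 67.0% for Igfbp2, 71.7% for Igfbp3, 56.3% for Igfbp5 and 73.3% for Igfbp7, against a median of 52.7% over all windows. Igfbp3 and Igfbp7 hold 37 and 33 CG dinucleotides, and Igfbp5 holds 10, against a median of 7. Of the other members, Igfbp4 has TATAAA starting 28 bases before its start, the position usual for a TATA box, and a GC content of 71.3%.

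The plot of levels by gene shows the 9 genes side by side. In the inhibitor group Igfbp2 and Igf1r stood highest in CPM, while with TGFb1 it was Igfbp3, Igfbp7, Igfbp5 and Igf1r.

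**Figure D1:**
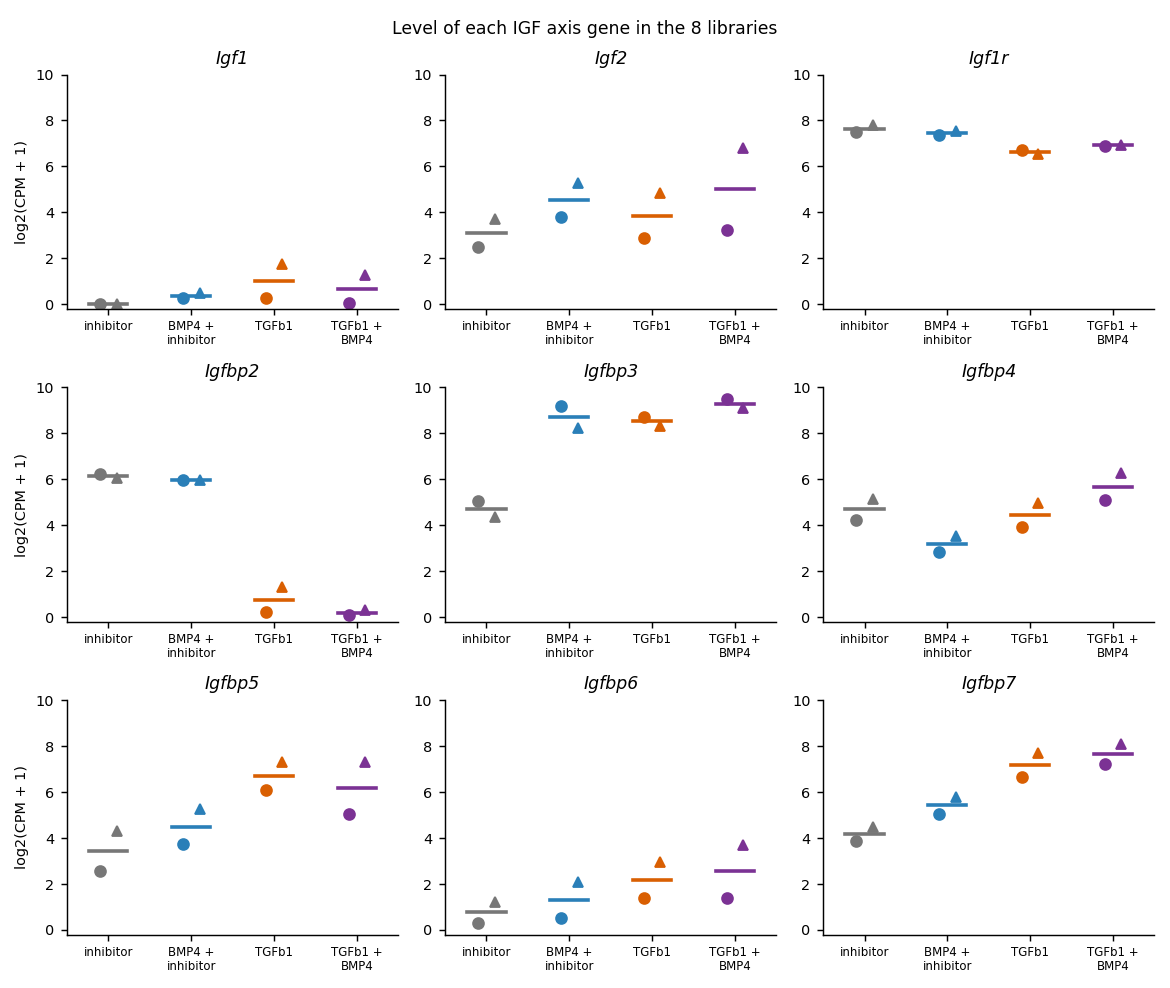
Level of each of the 9 genes, as log2(CPM + 1), in each library. Circles are replicate 1, triangles replicate 2 and bars the group mean (n = 2 libraries). Igfbp2 is near 0 in all 4 libraries without the inhibitor, and Igfbp3 is lowest in the 2 inhibitor libraries.

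Among the ligands, Igf1 was close to undetected. Igf1 (ENSMUSG00000020053, chr10:87858265-87937042, plus strand, GRCm38) encodes the ligand through which growth hormone acts in many tissues. It was listed at 0 in both inhibitor libraries and at 0.2 and 0.4 CPM with BMP4 + inhibitor. With TGFb1 it was 0.2 and 2.4 CPM, and with TGFb1 + BMP4 0.05 and 1.4 CPM. The 2 highest values were both replicate 2 libraries without the inhibitor, and they alone carried the gene through the 1 CPM filter. No fold is given for Igf1, since its inhibitor libraries are at 0 and other libraries lie near 3 units of the scaled table, 0.15 CPM. That limit was set for this report, and lower values, such as 0.05 CPM, do occur.

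Igf2 (ENSMUSG00000048583, chr7:142650766-142666816, minus strand) encodes the fetal growth ligand and is transcribed mainly from the paternal copy. It was 4.6 and 11.9 CPM in the inhibitor group, 13.1 and 37.4 with BMP4 + inhibitor, 6.3 and 27.7 with TGFb1, and 8.49 and 110 with TGFb1 + BMP4. Only the BMP4 + inhibitor libraries lay wholly above the inhibitor libraries, and the other 2 groups overlapped them. On the log2(CPM + 1) scale the difference from the inhibitor group was 1.45 ± 1.23 (SE, n = 2 per group) with BMP4 + inhibitor, 0.77 ± 1.23 with TGFb1 and 1.93 ± 1.23 with TGFb1 + BMP4. Replicate 2 exceeded replicate 1 in 4 of 4 groups, by a median of 1.71 on that scale. Within replicate numbers 1 and 2 the difference from the inhibitor had 1 sign throughout, at 1.34 and 1.57 with BMP4 + inhibitor, 0.38 and 1.15 with TGFb1, and 0.76 and 3.09 with TGFb1 + BMP4.

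H19, a maternally transcribed non-coding RNA 72.6 kb from Igf2 whose expression is coupled to it by imprinting, was measured at 10.7 and 63.5 CPM in the inhibitor group. It was 60.5 and 184 CPM with BMP4 + inhibitor, 43.4 and 151 with TGFb1, and 81.3 and 463 with TGFb1 + BMP4. As for Igf2, replicate 2 was the higher library in 4 of 4 groups, by a median of 2.12. H19 passed no comparison without a replicate term (limma, adjusted p = 0.334 for BMP4 + inhibitor, 0.31 for TGFb1 and 0.0874 for TGFb1 + BMP4, each against the inhibitor group). With replicate number as a block the same 3 comparisons gave adjusted p = 0.00363, 0.00218 and 0.000185. The fibroblast and muscle marker sums given above were also higher in replicate 2 of each group, and their part in the levels of Igf2 and H19 was not tested. Igf2 shares 3596 exon bases with the annotated gene Gm49394 on the same strand and 98 with the antisense Igf2os, which reached at most 1.099 CPM.

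The receptor gene was lower in the libraries without the inhibitor. Igf1r (ENSMUSG00000005533, chr7:67952827-68233668, plus strand) was 178 and 219 CPM in the inhibitor group and 165 and 188 with BMP4 + inhibitor. It was 103 and 92.8 CPM with TGFb1 and 117 and 122 with TGFb1 + BMP4. All 4 libraries without the inhibitor lay below all 4 with it, while the first 2 groups overlapped. The difference from the inhibitor group was -0.17 ± 0.13 with BMP4 + inhibitor, -1.01 ± 0.13 with TGFb1 and -0.72 ± 0.13 with TGFb1 + BMP4. The replicates of a group differed by 0.30, 0.19, -0.14 and 0.05 in the order of groups above, so the value for BMP4 + inhibitor is smaller than 2 of these 4 gaps, and the other 2 values are larger than all 4. The TGFb1 + BMP4 libraries were above the TGFb1 libraries by 0.29 ± 0.13, or 0.15 under another scaling of the libraries.

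The related receptors were measured too. Insr, the insulin receptor, ranged from 58.6 to 72.7 CPM over the 8 libraries and passed no comparison, with adjusted p = 0.507 (limma) for TGFb1 against the inhibitor. Igf2r, which takes Igf2 to the lysosome, was 220 and 206 CPM in the inhibitor group, 193 and 216 with BMP4 + inhibitor, 273 and 276 with TGFb1 and 154 and 199 with TGFb1 + BMP4. Its TGFb1 libraries were the highest, by 0.36 ± 0.14 over the inhibitor group (adjusted p = 0.082, and 0.0468 with the replicate block). TGFb1 + BMP4 stood -0.65 ± 0.14 from TGFb1 alone (adjusted p = 0.079, and 0.0344 with the block).

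Igfbp2 and Igfbp3 were the binding protein genes with the most marked differences, in opposite directions. Igfbp2 (ENSMUSG00000039323, chr1:72824503-72852474, plus strand) encodes a binding protein that prefers Igf2 and also binds integrins. It was 74.5 and 66.3 CPM in the inhibitor group and 60.9 and 62.2 with BMP4 + inhibitor. With TGFb1 it was 0.15 and 1.45 CPM, and with TGFb1 + BMP4 0.05 and 0.25. The gap between the 4 libraries with the inhibitor and the 4 without it was far wider than the gap between any replicates. The mean with TGFb1 was 0.0114 of the inhibitor mean. On the log2(CPM + 1) scale the difference was -5.41 ± 0.34 with TGFb1 and -5.96 ± 0.34 with TGFb1 + BMP4, and with a pseudocount of 0.1 these became -6.82 and -8.26, since values this low depend on the pseudocount. BMP4 + inhibitor differed from the inhibitor by -0.19 ± 0.34, an SE that pools the spread of all 4 groups, those with values near 0 among them. The libraries of these 2 groups did not overlap, and within replicate numbers 1 and 2 the difference was -0.29 and -0.09.

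Igfbp3 (ENSMUSG00000020427, chr11:7206086-7213923, minus strand) encodes the main carrier of these ligands in blood, which also restrains the growth of epithelial cells. It was 32.6 and 19.2 CPM in the inhibitor group, 576 and 303 with BMP4 + inhibitor, 419 and 318 with TGFb1, and 719 and 550 with TGFb1 + BMP4. Each of the 6 libraries that received a ligand lay above both inhibitor libraries. The ratio of mean CPM to the inhibitor group was 16.9 with BMP4 + inhibitor, 14.2 with TGFb1 and 24.5 with TGFb1 + BMP4. The log2 differences were 4.00 ± 0.37, 3.81 ± 0.37 and 4.60 ± 0.37. When BMP4 was added to TGFb1 the further difference was 0.78 ± 0.37, smaller than BMP4's difference under the inhibitor by 3.22 ± 0.52 (log2 -3.22 for the interaction, which is BMP4's difference with TGFb1 minus that under the inhibitor). Unlike the other binding proteins, Igfbp3 was lower in replicate 2 in 4 of 4 groups, by a median log2 of -0.57.

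Igfbp2 and Igfbp5 lie tail to tail on chromosome 1, 5.5 kb apart with no annotated gene between them. In the TGFb1 libraries their levels stood apart, with Igfbp2 at 0.15 and 1.45 CPM and Igfbp5 at 66.6 and 157 CPM. Igfbp3 has a neighbour of its own family on chromosome 11, Igfbp1, 3.5 kb away with no gene between. Igfbp1, a binding protein made mainly by liver, was listed at 0 in all 8 libraries.

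Igfbp7 and Igfbp5 were higher in the groups without the inhibitor. Igfbp7 (ENSMUSG00000036256, chr5:77349240-77408041, minus strand) encodes a secreted protein of vessel walls and stroma that binds insulin-like growth factors only weakly. It was 13.7 and 21.6 CPM in the inhibitor group, 32.2 and 54.9 with BMP4 + inhibitor, 99.0 and 209 with TGFb1, and 150 and 274 with TGFb1 + BMP4. The inhibitor libraries, the BMP4 + inhibitor libraries and the 4 libraries with TGFb1 did not overlap each other. The log2 difference from the inhibitor was 1.24 ± 0.47, 2.99 ± 0.47 and 3.48 ± 0.47 in this order of groups. Replicate 2 was higher in 4 of 4 groups by a median of 0.81. Igfbp7 shares 85 exon bases with Polr2b on the other strand, a gene that reached 112 CPM, and the sources used here do not say whether the counting used strand.

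Igfbp5 (ENSMUSG00000026185, chr1:72857932-72874884, minus strand) encodes a binding protein that is stored in the matrix and is common in muscle, bone and fibroblasts. It was 4.85 and 18.8 CPM in the inhibitor group, 12.2 and 37.8 with BMP4 + inhibitor, 66.6 and 157 with TGFb1, and 32.1 and 156 with TGFb1 + BMP4. The 4 libraries with TGFb1 lay above both inhibitor libraries, but TGFb1 + BMP4 replicate 1 lay below BMP4 + inhibitor replicate 2. The log2 difference from the inhibitor was 1.08 ± 0.96 with BMP4 + inhibitor, 3.26 ± 0.96 with TGFb1 and 2.75 ± 0.96 with TGFb1 + BMP4. Within replicate numbers 1 and 2 it was 3.53 and 3.00 with TGFb1 and 2.5 and 2.99 with TGFb1 + BMP4. Replicate 2 was higher in 4 of 4 groups, by a median of 1.66.

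Igfbp4 went one way with BMP4 under the inhibitor and the other way with BMP4 on top of TGFb1. Igfbp4 (ENSMUSG00000017493, chr11:99041244-99054392, plus strand) encodes a binding protein that blocks the ligands until the protease Pappa cuts it. It was 18.0 and 34.6 CPM in the inhibitor group and 6.15 and 10.6 with BMP4 + inhibitor, with no overlap. With TGFb1 it was 14.2 and 30.5 CPM, and with TGFb1 + BMP4 32.9 and 77.0, again with no overlap between this pair of groups. The log2 difference made by BMP4 was -1.51 ± 0.55 under the inhibitor and 1.23 ± 0.55 with TGFb1. Both replicate numbers showed each direction, at -1.41 and -1.61 under the inhibitor and 1.16 and 1.31 with TGFb1. Replicate 2 was higher in 4 of 4 groups by a median of 0.98.

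Igfbp6 (ENSMUSG00000023046, chr15:102144362-102149511, plus strand), whose product prefers Igf2 strongly over Igf1, was 0.25 and 1.3 CPM in the inhibitor group, 0.45 and 3.25 with BMP4 + inhibitor, 1.65 and 6.7 with TGFb1, and 1.65 and 12.1 with TGFb1 + BMP4. Both groups with TGFb1 lay above the inhibitor libraries. The log2 differences of these 2 groups were 1.41 ± 0.92 and 1.80 ± 0.92, and within replicate numbers 1 and 2 they were 1.08 and 1.74 with TGFb1 and 1.08 and 2.51 with TGFb1 + BMP4. Replicate 2 was higher in 4 of 4 groups by a median of 1.54.

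The plot of fitted differences sets these values beside their errors. Of the 9 genes, BMP4 + inhibitor against the inhibitor counted 1 higher and 0 lower at adjusted p under 0.05 (limma over 16180 genes), where 5.49% of all tested genes were higher and 2.91% lower. TGFb1 against the inhibitor counted 3 higher and 2 lower, where 20.0% of all genes were higher and 20.0% lower. TGFb1 + BMP4 against the inhibitor counted 2 and 2, beside 27.6% and 18.4%. TGFb1 + BMP4 against TGFb1 counted 0 and 0 by limma, and also 0 at an unadjusted p under 0.05, beside 0.921% and 1.09%. TGFb1 + BMP4 against BMP4 + inhibitor counted 2 and 2, beside 17.3% and 10.9%, and the interaction 0 and 1, beside 0.297% and 0.989%. With the replicate number as a block these pairs of counts became 3 and 1, 4 and 2, 6 and 2, 2 and 0, 5 and 2, and 1 and 2. Since the genes were selected with these contrasts known, nothing is read from the counts. The median of the 9 differences was 0.55, 1.01 and 1.80 for the 3 treatments against the inhibitor. These are the values of Igfbp6, Igf1 and Igfbp6, genes of low level. The median over all tested genes was 0.02, -0.01 and 0.13, and for the same reason nothing is read from these medians.

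**Figure D2:**
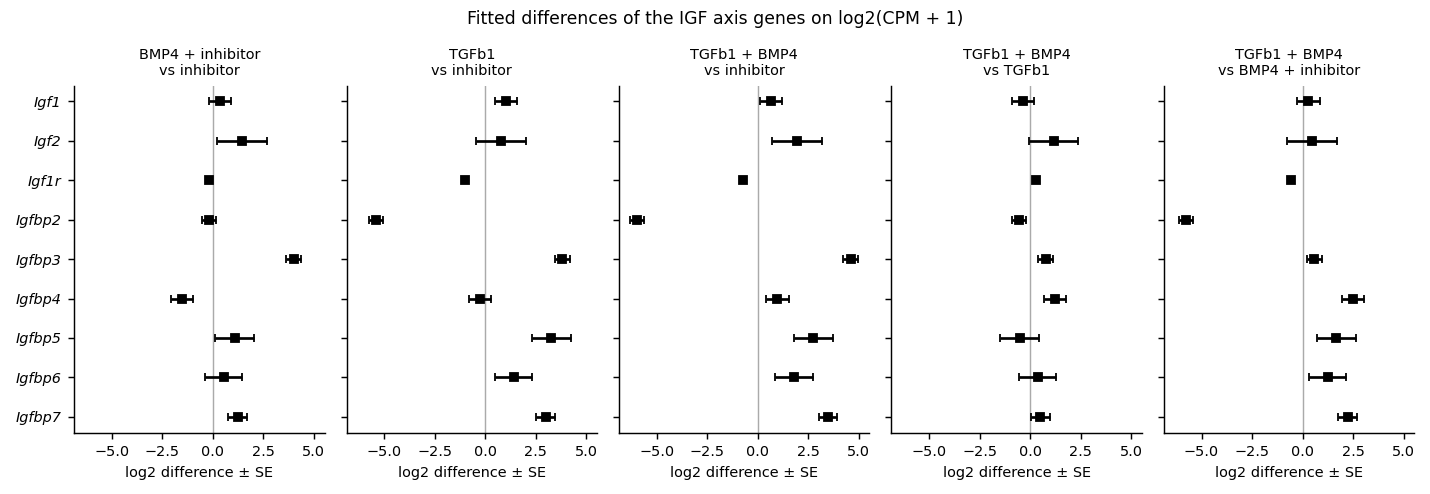
Fitted differences of the 9 genes on log2(CPM + 1) in 5 comparisons, with bars of 1 SE (n = 2 libraries per group). Igfbp2 lies at -5.41, -5.96 and -5.77 where a group without the inhibitor is set against a group with it, and Igfbp3 at 4.00, 3.81 and 4.60 against the inhibitor.

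To compare levels between genes, CPM was divided by the length of the gene's merged exons in kb. On that scale the 6 binding protein genes summed to 67.2 and 72.0 in the inhibitor libraries, 247 and 187 with BMP4 + inhibitor, 232 and 315 with TGFb1 and 368 and 457 with TGFb1 + BMP4. The inhibitor libraries were lowest and the TGFb1 + BMP4 libraries highest, and the other 2 groups overlapped. Igfbp2 made up 60.0% and 49.8% of the sum in the inhibitor libraries, 13.3% and 18.0% with BMP4 + inhibitor, 0.035% and 0.249% with TGFb1, and 0.00736% and 0.0296% with TGFb1 + BMP4. Igfbp3 made up 15.5% and 8.51%, then 74.4% and 51.6%, then 57.8% and 32.3%, then 62.4% and 38.5%. Igfbp7 took 16.9% and 24.8% in the inhibitor libraries, 10.8% and 24.2% with BMP4 + inhibitor, 35.4% and 55.0% with TGFb1, and 33.7% and 49.6% with TGFb1 + BMP4. In both groups with TGFb1, Igfbp3 led in replicate 1 and Igfbp7 in replicate 2, so their order there was not the same in the 2 libraries. Igfbp4, Igfbp5 and Igfbp6 each held 10.9% or less in every library.

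**Figure D3:**
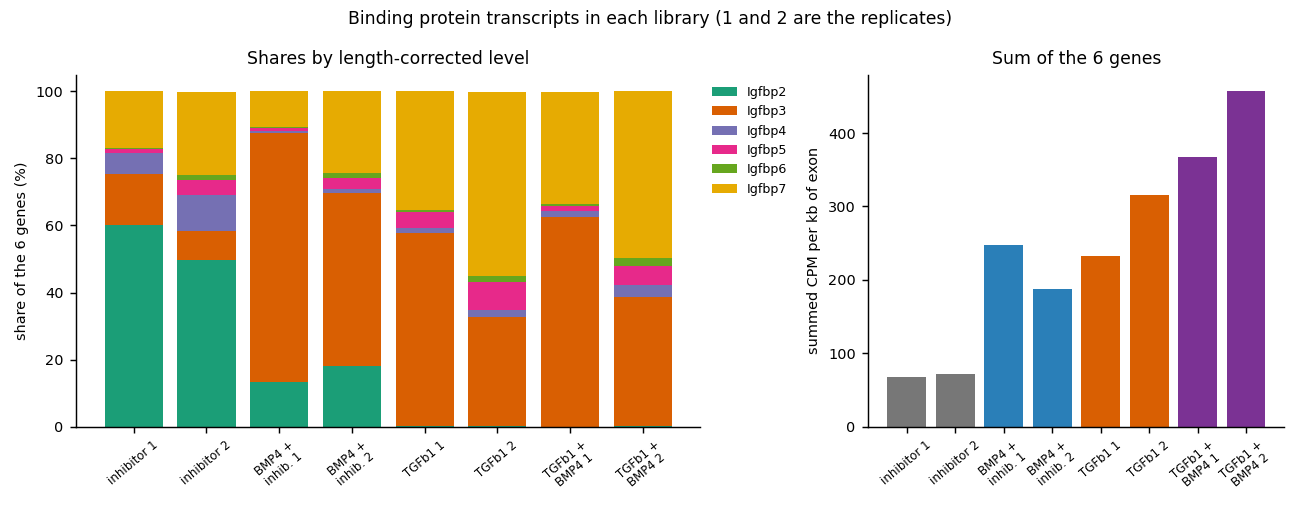
Left, share of each binding protein gene in the summed CPM per kb of exon of the 6 genes, in percent, for each library. Right, that sum in CPM per kb. Igfbp2 has 60.0% and 49.8% of the sum in the inhibitor libraries and under 1% in every library without the inhibitor.

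With all 9 genes on this scale, the inhibitor group means ran from 38.1 CPM per kb for Igfbp2 through 14.6 for Igfbp7, 11.8 for Igf1r, 8.28 for Igfbp3 and 5.96 for Igfbp4 down to 1.97 for Igfbp5, 1.45 for Igf2, 0.696 for Igfbp6 and 0 for Igf1. Igf1r and Igfbp3 lay within 0.2 of each other in replicate 1, and Igfbp3 and Igfbp4 changed places between the replicates. With BMP4 + inhibitor the order began with Igfbp3 at 140, Igfbp7 at 36.0 and Igfbp2 at 33.3 CPM per kb, and the last 2 changed places between replicates. With TGFb1 the means were 128 for Igfbp7, 118 for Igfbp3 and 18.6 for Igfbp5, and with TGFb1 + BMP4 they were 203 for Igfbp3, 175 for Igfbp7 and 15.7 for Igfbp5. Igf2 reached its highest mean, 10.3 CPM per kb, in the last group, from 1.48 and 19.1 in the 2 libraries.

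Igf2, Igfbp4, Igfbp5, Igfbp6 and Igfbp7 were higher in replicate 2 than in replicate 1 in 4 of 4 groups, and Igf1 in 3 of 4. Igf1r and Igfbp2 were higher in replicate 2 in 3 of 4 groups, by medians of 0.12 and 0.14. The summed fibroblast markers were higher in replicate 2 by 2.00, 1.95, 1.80 and 2.23 on the log2 scale in the inhibitor, BMP4 + inhibitor, TGFb1 and TGFb1 + BMP4 groups. The summed muscle markers were higher by 2.31, 2.02, 2.09 and 2.57. The epithelial sum moved by -0.19, -0.09, 0.12 and -0.29. Igf2, Igfbp4, Igfbp5, Igfbp6 and Igfbp7, and the fibroblast, muscle and endothelial sums, were thus all higher in replicate 2 in 4 of 4 groups. How many of all genes were so was not counted. Over all tested genes, deviations of same-numbered libraries from their group means correlated at 0.32 to 0.74 between groups. With BMP4 + inhibitor, Igfbp4 had a lower mean than in the inhibitor group (8.39 against 26.3 CPM). The fibroblast sum and the means of Igf2, Igfbp5, Igfbp6 and Igfbp7 were higher there. The fibroblast sum was also higher in each next group, in the order of treatments above, within either replicate number. Collagen genes made up most of it, with Col1a1, Col1a2 and Col3a1 at 525, 553 and 135 of 1360 CPM in TGFb1 replicate 1. The last step, from TGFb1 to TGFb1 + BMP4, was not shared by all markers in replicate 1. Pdgfra, Pdgfrb, Dcn, Lum, Mfap5 and Thy1 were lower there, and the other markers of the list, the collagens among them, were higher. The part of fibroblast and muscle RNA in the levels of the 9 genes was not tested.

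**Figure D4:**
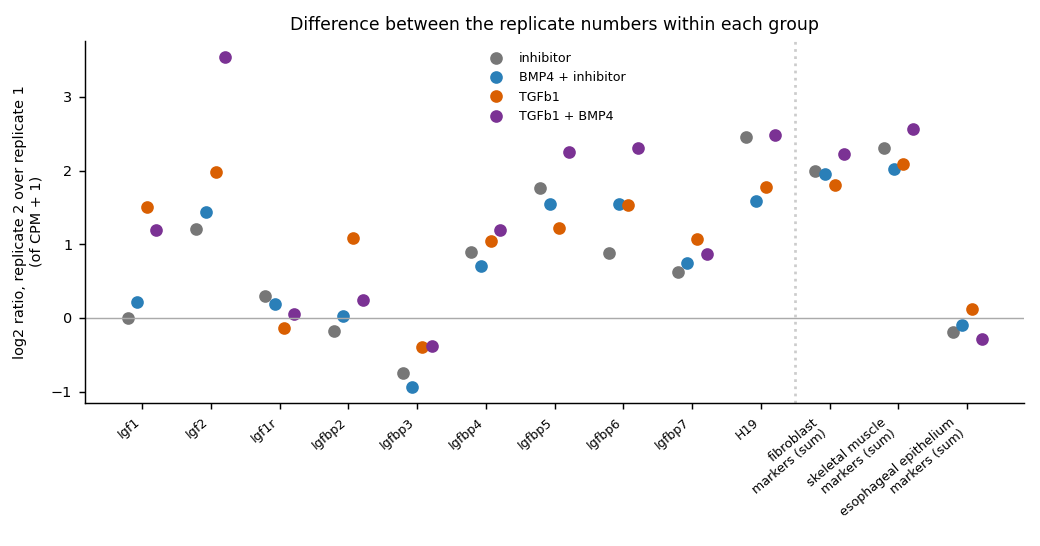
Log2 ratio of replicate 2 to replicate 1, on CPM + 1, within each treatment group (coloured points), for the 9 genes, for H19 and for the summed CPM of 3 marker lists. Igf2, Igfbp4, Igfbp5, Igfbp6, Igfbp7, H19 and the fibroblast and muscle sums are above 0 in all 4 groups, and Igfbp3 is below 0 in all 4.

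Among 11656 other tested genes with a group mean of 5 CPM or more, those whose log2(CPM + 1) followed each member most closely over the 8 libraries were named by Pearson r, up to 2 for each member, as a description only. For Igfbp2 they were the cornified envelope genes Lce1l (r = 0.998) and Lce1i (r = 0.997), which belong to a family of near-identical copies whose reads may be split between them. For Igfbp7 they were Ltbp2, a latent TGFb binding protein of the matrix (r = 0.997), and the collagen gene Col1a1 (r = 0.996), for Igfbp6 Fcgrt (r = 0.998) and the muscle troponin Tnnt3 (r = 0.996), and for Igfbp5 Lgals1 and Glipr2 (r = 0.988 each). For Igf2, Peg3, another imprinted gene, is given (r = 0.985). Igf1 was closest to the chemokine gene Cxcl12 (r = 0.962) and Plxdc1 (r = 0.954). Igfbp3 was closest to the carnitine carrier Slc25a20 and to Stmn2 (r = 0.992 each). Igfbp4 was closest to Tbce (r = 0.981) and Tmem39a (r = 0.976), and Igf1r to Gatc (r = 0.989) and Ccdc166 (r = 0.988). The 8 points share 4 treatments and 2 replicate numbers, so such values are common: 290 candidates passed r of 0.95 with Igfbp2 and 235 with Igfbp7, against 16 with Igf2 and 2 with Igf1.

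The rest of the pathway was followed in 63 genes in 6 lists by role, of which 51 passed the filter on low levels and were tested with limma. These genes are not members of the selected set, and each call below is at adjusted p under 0.05. The 12 not tested included Ins1, Ins2, Igfbp1, Irs4 and Igfbpl1, all listed at 0 in every library. Of the 51 tested genes, 9 rose and 0 fell with BMP4 + inhibitor against the inhibitor, 12 rose and 4 fell with TGFb1, and 20 rose and 4 fell with TGFb1 + BMP4. TGFb1 + BMP4 against BMP4 + inhibitor gave 11 up and 2 down. As shares of the 51, the genes that rose were 17.6%, 23.5%, 39.2% and 21.6% in these 4 comparisons, beside 5.49%, 20.0%, 27.6% and 17.3% of all tested genes. Those that fell were 0.00%, 7.84%, 7.84% and 3.92%, beside 2.91%, 20.0%, 18.4% and 10.9%. These splits depended on the scaling of the libraries. With median-of-ratios scaling the 51 gave 8 up and 0 down, 12 and 6, 15 and 7, and 6 and 3 in the same order. All 16208 genes tested there gave 764 and 479, 3080 and 3151, 3450 and 3694, and 1927 and 2074. With the replicate block the called genes numbered 17 in place of 9 for BMP4 + inhibitor (12 higher and 5 lower), 30 in place of 16 for TGFb1 (18 and 12), and 25 in place of 13 for TGFb1 + BMP4 against BMP4 + inhibitor (17 and 8). The 0 that fell with BMP4 + inhibitor was thus not the same in every fit, and without BMP4 + inhibitor replicate 2 it was 4, beside 9 that rose.

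The proteases that cut binding proteins, and the inhibitors of those proteases, held the called pathway gene with the largest difference, Adam12. Of 7 tested, 2 rose and 0 fell with BMP4 + inhibitor, 3 rose and 2 fell with TGFb1, and 4 rose and 2 fell with TGFb1 + BMP4. With the block these were 2 and 2, 4 and 2, and 4 and 2. Without the block, 5.49%, 20.0% and 27.6% of all tested genes rose and 2.91%, 20.0% and 18.4% fell. The list's median difference was 0.03, 0.78 and 0.91 in these 3 comparisons, beside 0.02, -0.01 and 0.13 for all tested genes. Adam12, a membrane protease known from human work to cut Igfbp3 and Igfbp5, was 0.85 and 0.949 CPM in the inhibitor group, 5.6 and 5.65 with BMP4 + inhibitor, 444 and 346 with TGFb1, and 605 and 578 with TGFb1 + BMP4. The 4 groups did not overlap. Adam12 rose by 1.80 ± 0.14 with BMP4 + inhibitor (adjusted p = 0.00218) and by 7.69 ± 0.14 with TGFb1 (adjusted p = 7.11e-06). Adam28, for which cleavage of Igfbp3 is described in human cells, was 51.6 and 31.7, 243 and 140, 286 and 258, and 365 and 412 CPM in the same order. It rose by 2.16 ± 0.31 with BMP4 + inhibitor (adjusted p = 0.012) and by 2.72 ± 0.31 with TGFb1 (adjusted p = 0.00149). The first of these calls was lost without inhibitor replicate 2 or without BMP4 + inhibitor replicate 1, where adjusted p reached 0.0837.

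Pappa, the protease that frees ligand from Igfbp4, and Stc2, which blocks Pappa, both fell. Pappa was 99.2 and 147 CPM in the inhibitor group, 24.6 and 81.2 with BMP4 + inhibitor, 19.7 and 39.1 with TGFb1, and 10.1 and 20.1 with TGFb1 + BMP4. Stc2 was 130 and 198, 8.49 and 85.4, 6.1 and 10.1, and 2.5 and 5.05 CPM. In every group with a ligand, both genes lay below both inhibitor libraries. Against the inhibitor, TGFb1 gave -2.08 ± 0.62 for Pappa (adjusted p = 0.0367) and -4.19 ± 0.94 for Stc2 (adjusted p = 0.0146), and TGFb1 + BMP4 gave -2.99 ± 0.62 (adjusted p = 0.0091) and -5.14 ± 0.94 (adjusted p = 0.00586). The TGFb1 calls were lost without inhibitor replicate 1, inhibitor replicate 2 or TGFb1 replicate 1, with adjusted p up to 0.168 for Pappa and 0.0849 for Stc2. The Pappa call with TGFb1 + BMP4 was lost without inhibitor replicate 2 (adjusted p = 0.059). BMP4 + inhibitor gave -1.41 ± 0.62 for Pappa (adjusted p = 0.203, and 0.0112 with the block) and -2.50 ± 0.94 for Stc2 (adjusted p = 0.152, and 0.0322 with the block). Htra1, a secreted serine protease, rose by 0.91 ± 0.25 with TGFb1 + BMP4 (adjusted p = 0.0231), a call lost without inhibitor replicate 1 or either TGFb1 + BMP4 library (adjusted p up to 0.108).

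Secreted or membrane proteins that carry an IGFBP-type domain were called only as higher against the inhibitor. Most of them are matrix proteins of the CCN family rather than carriers of ligand. Of 7 tested, 4 rose with BMP4 + inhibitor, 3 with TGFb1 and 5 with TGFb1 + BMP4, and 0 fell in any of the 3. Of all tested genes, 5.49%, 20.0% and 27.6% rose and 2.91%, 20.0% and 18.4% fell. With the block 5, 3 and 5 were higher and 0 lower. The median difference was 1.58, 0.64 and 1.40. For TGFb1 + BMP4 against BMP4 + inhibitor, 2 rose and 1 fell, or 2 and 2 with the block, and the median was -0.22. Of all tested genes, 17.3% rose and 10.9% fell there. Ctgf, a CCN protein and a common TGFb target, was 1.15 and 1.25 CPM in the inhibitor group, 9.94 and 8.94 with BMP4 + inhibitor, 135 and 224 with TGFb1, and 171 and 357 with TGFb1 + BMP4. It rose by 2.25 ± 0.37 with BMP4 + inhibitor (adjusted p = 0.0187) and by 6.32 ± 0.37 with TGFb1 (adjusted p = 0.000224). The BMP4 + inhibitor call was lost without inhibitor replicate 1, inhibitor replicate 2 or BMP4 + inhibitor replicate 1 (adjusted p up to 0.119). Ctgf shares 665 exon bases with the opposite-strand transcript Gm15270, which reached 117 CPM, so without known strand the reads of both cannot be told apart.

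Crim1, a membrane protein that binds BMPs, was 51.2 and 64.2 CPM in the inhibitor group, 183 and 163 with BMP4 + inhibitor, 72.1 and 71.8 with TGFb1, and 121 and 100 with TGFb1 + BMP4. It rose by 1.58 ± 0.15 with BMP4 + inhibitor (adjusted p = 0.00381), while TGFb1 gave 0.32 ± 0.15 (adjusted p = 0.126). The BMP4 + inhibitor libraries were the highest and did not overlap any other group. Wisp1, another CCN gene that fibroblasts also make, was at 0.25 and 0.7 CPM in the inhibitor group, 0.25 and 1.1 with BMP4 + inhibitor, 15.5 and 45.0 with TGFb1 and 11.2 and 60.6 with TGFb1 + BMP4. It rose by 4.24 ± 0.81 with TGFb1 (adjusted p = 0.00844, and 0.0529 without inhibitor replicate 1). Ctgf and Wisp1 were higher in replicate 2 of both TGFb1 groups, as was the fibroblast sum of 1360 to 6859 CPM in those libraries, and its part in their levels was not tested. Kazald1 rose by 2.48 ± 0.43 with BMP4 + inhibitor (adjusted p = 0.0212), a call lost without inhibitor replicate 1, inhibitor replicate 2 or BMP4 + inhibitor replicate 1 (adjusted p up to 0.128). Cyr61 rose by 1.62 ± 0.36 in the same comparison (adjusted p = 0.0441), and its adjusted p rose to as much as 0.194 without 1 library, either inhibitor library or any of the 4 with TGFb1.

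Inside the cell, the regulatory subunits of phosphoinositide 3-kinase rose together. Of 18 tested genes from this kinase to FOXO factors, 3 rose with BMP4 + inhibitor and 0 fell, 5 rose and 1 fell with TGFb1, and 9 rose and 1 fell with TGFb1 + BMP4. With the block these were 4 and 0, 6 and 4, and 10 and 2. The list's median difference was 0.11, 0.08 and 0.33. Without the block, 5.49%, 20.0% and 27.6% of all tested genes rose and 2.91%, 20.0% and 18.4% fell. Pik3r3, a regulatory subunit, was 3.65 and 2.75 CPM in the inhibitor group, 13.6 and 7.15 with BMP4 + inhibitor, 29.9 and 23.4 with TGFb1 and 28.3 and 26.9 with TGFb1 + BMP4. It rose by 2.72 ± 0.29 with TGFb1 (adjusted p = 0.00129) and by 1.38 ± 0.29 with BMP4 + inhibitor (adjusted p = 0.0379), and the latter call was lost without any 1 of 7 libraries (adjusted p up to 0.206), the exception being BMP4 + inhibitor replicate 2. It shares 1289 exon bases with the same-strand gene Gm49337, which reached at most 8.94 CPM. Pik3r2 was 39.9 and 38.7, 76.4 and 56.5, 90.9 and 81.8, and 115 and 98.2 CPM, and rose by 1.11 ± 0.16 with TGFb1 (adjusted p = 0.0035). Pik3r1, the most studied of the 3, rose by 0.87 ± 0.16 with BMP4 + inhibitor (adjusted p = 0.0273) and 0.71 ± 0.16 with TGFb1 (adjusted p = 0.0154). Without 1 inhibitor library, either of them, both Pik3r1 calls were lost, as they were without BMP4 + inhibitor replicate 1 and TGFb1 replicate 2 respectively (adjusted p up to 0.148 and 0.0748). Foxo1, a transcription factor that insulin signalling holds out of the nucleus, rose by 0.76 ± 0.14 with TGFb1 + BMP4 (adjusted p = 0.00679). Eif4ebp1, a translation repressor held off by mTOR, fell by 1.25 in log2, with SE 0.22, in that comparison (adjusted p = 0.00499).

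Adaptors and inhibitors of the receptor mostly did not pass. Of 10 tested, 0 passed with BMP4 + inhibitor by limma, and 0 at an unadjusted p under 0.05, but with the replicate block 2 passed as lower, Grb10 (log2 -2.11 ± 0.96 without the block, adjusted p = 0.217, and 0.0245 with it) and the insulin receptor substrate Irs2 (-0.55 ± 0.23, adjusted p = 0.187, and 0.0485 with the block). The list's median difference was -0.07, -0.16 and 0.13 for BMP4 + inhibitor, TGFb1 and TGFb1 + BMP4. Without the block, 5.49%, 20.0% and 27.6% of all tested genes rose and 2.91%, 20.0% and 18.4% fell there. In this list, TGFb1 gave 2 higher and 3 lower with the block, and TGFb1 + BMP4 also 2 and 3. Without it, 0 rose and 1 fell with TGFb1, namely Sh2b2, an adaptor of insulin receptor signalling, at 6.0 and 7.5 CPM in the inhibitor group and 3.1 and 2.9 with TGFb1 (log2 -0.95 ± 0.18, adjusted p = 0.0075). It was 7.89 and 8.0 CPM with TGFb1 + BMP4, higher than with TGFb1 by 1.16 ± 0.18 (limma, adjusted p = 0.0319). In that comparison 4 pathway genes were called with the block. Without it 1 was called, Sh2b2, or 1.96% of the 51, beside 0.921% of all tested genes that rose. That call was lost without either library of the inhibitor, TGFb1 or TGFb1 + BMP4 group, with adjusted p up to 0.17. Grb10, an imprinted inhibitor of the receptor, was 115 and 185 CPM in the inhibitor group, 12.5 and 85.0 with BMP4 + inhibitor, 20.1 and 35.0 with TGFb1 and 8.35 and 35.7 with TGFb1 + BMP4. TGFb1 + BMP4 against the inhibitor gave 1 rise and 1 fall in this list. The rise was Grb2, an adaptor that links receptors to RAS, from 69.0 and 75.1 to 93.0 and 87.5 CPM (0.32 ± 0.10, adjusted p = 0.0371), a call lost under median-of-ratios scaling and without either library of the inhibitor, TGFb1 or TGFb1 + BMP4 group (adjusted p up to 0.159). Grb10 fell (log2 -2.99 ± 0.96, adjusted p = 0.042), a call lost without inhibitor replicate 1 or 2, TGFb1 replicate 1 or 2, or TGFb1 + BMP4 replicate 1 (adjusted p up to 0.179). For TGFb1 alone its difference was -2.42 ± 0.96 (adjusted p = 0.087, and 0.00595 with the block).

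Of the other ligands, receptors and carriers, Igfals was the 1 gene of 3 tested that passed. Igfals encodes the subunit that completes the circulating complex with Igfbp3. It was 1.35 and 0.8 CPM in the inhibitor group, 0.55 and 0.35 with BMP4 + inhibitor, 3.15 and 2.4 with TGFb1 and 2.45 and 2.55 with TGFb1 + BMP4. TGFb1 + BMP4 against BMP4 + inhibitor gave a rise of 1.27 ± 0.21 (adjusted p = 0.00645), at levels near the 1 CPM filter. The median difference of the 3 was -0.07, 0.36 and -0.13 for BMP4 + inhibitor, TGFb1 and TGFb1 + BMP4, each against the inhibitor. In these comparisons 5.49%, 20.0% and 27.6% of all tested genes rose and 2.91%, 20.0% and 18.4% fell. The 6 genes of the list with the Igf2 mRNA-binding proteins, H19, Hmga2 and Plagl1 gave 0 calls by limma with BMP4 + inhibitor and with TGFb1, and 1 and 2 at an unadjusted p under 0.05, with medians of -0.17 and -0.37. With the block, H19 was higher and Plagl1 lower with BMP4 + inhibitor, and TGFb1 gave H19 higher and Plagl1, Hmga2 and Igf2bp1 lower. Plagl1, an imprinted zinc finger factor of the same growth network, was 13.1 and 21.1 CPM in the inhibitor group and between 3.25 and 9.79 in the other 6 libraries. Its difference was -1.91 ± 0.51 with BMP4 + inhibitor (adjusted p = 0.0677) and -1.48 ± 0.51 with TGFb1 (adjusted p = 0.0567), and with the block adjusted p was 0.0143 and 0.0136.

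The interaction, which asks whether BMP4 had a different effect with TGFb1 than under the inhibitor, called 1 of the 51 pathway genes by limma. That gene, called as lower, is 1.96% of them, beside 0.989% of all tested genes called as lower. For Adam12, BMP4 made a difference of 1.80 ± 0.14 under the inhibitor and of 0.59 ± 0.14 with TGFb1 (adjusted p = 0.0922 for the latter, and 0.0477 with the block), and the interaction was -1.21 ± 0.20 (adjusted p = 0.0475). Without each library in turn, that adjusted p lay between 0.0548 and 0.182, so each of the 8 libraries is needed for the call. With the block it was 0.019 and the pathway count was 5.

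**Figure D5:**
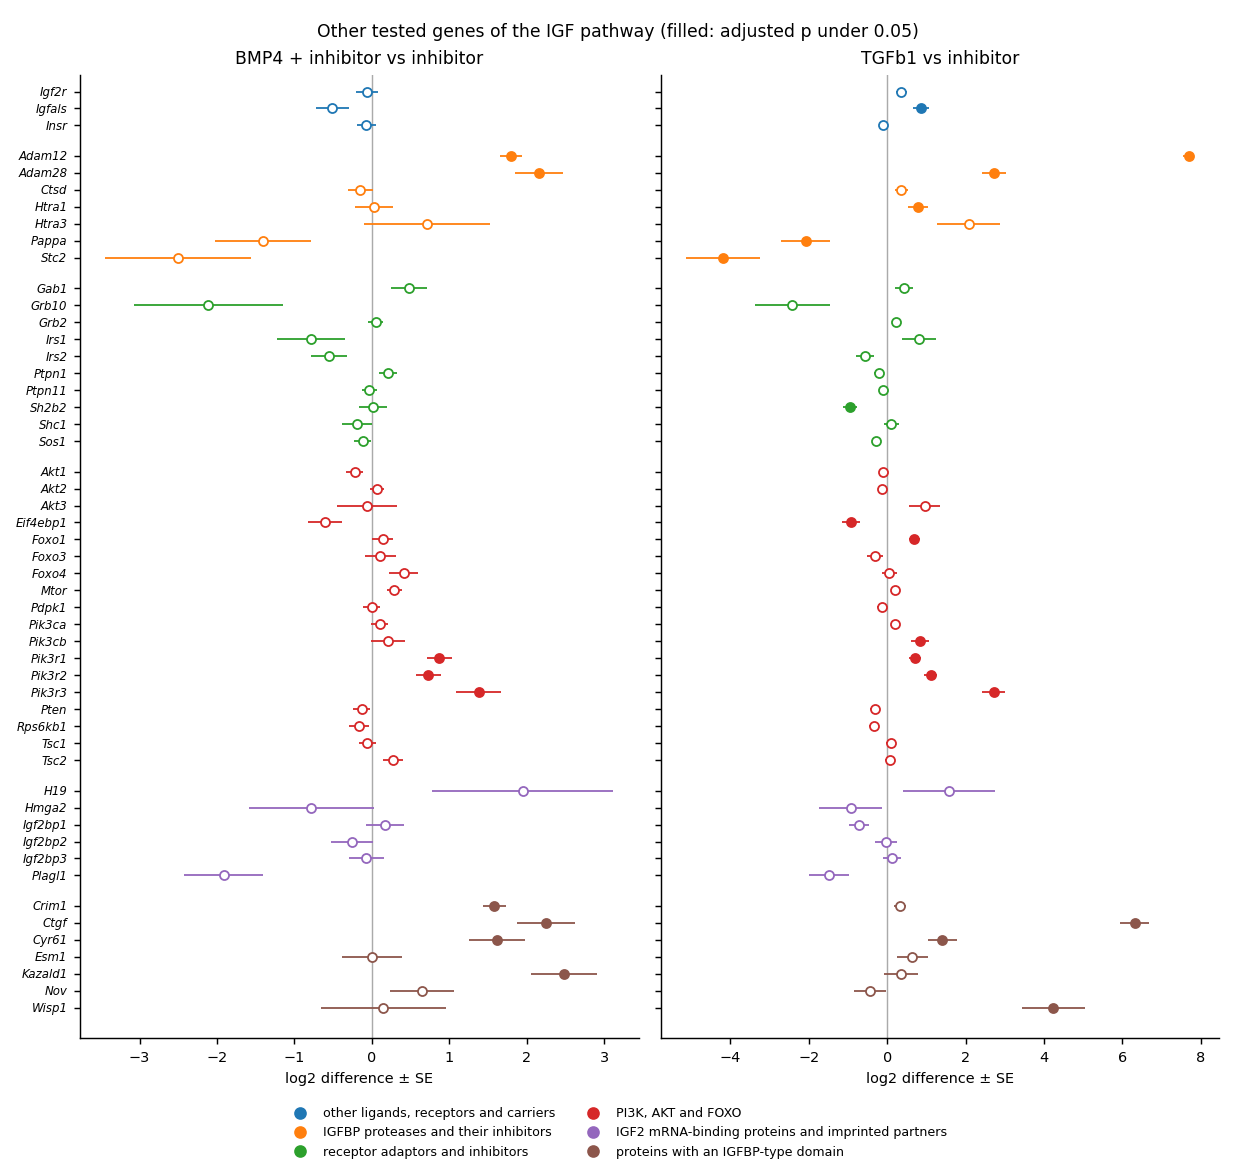
Fitted log2(CPM + 1) differences, with bars of 1 SE, of the 51 tested pathway genes for BMP4 + inhibitor and for TGFb1, each against the inhibitor (n = 2 libraries per group), coloured by list. The axes of the panels differ in span. Filled points passed adjusted p under 0.05, with Adam12 at 1.80 and 7.69 and Ctgf at 2.25 and 6.32.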

How the data were processed

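Per the labels' protocols, total organoid RNA went through the Ovation SoLo kit and a NovaSeq instrument. The submitters' processing notes name builds GRCm38 and mm10 and the tools edgeR, Cell Ranger 3.1.0, HTSeq and STAR 2.5.3a, with no role for each. The sources used here do not give the annotation, strand setting or filters. The authors deposited CPM, used here, beside whole-number scores, which are read counts scaled to about 20000000 per library. The totals exceed 20000000 by 0.464 to 0.524 per gene above 0, so the scores look rounded up. Values of a few units, at 0.05 CPM per unit, may therefore be too high. Dividing the scores by their totals gave the deposited CPM within 0.0005. The second sheet was not used.

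Genes were kept where 2 or more libraries reached 1 CPM, and the 16180 kept were fitted as log2(CPM + 1) with limma 3.58.1 (trend, R 4.3.3), by treatment group, over all 8 libraries. Each SE rests on 1 spread per gene, shared by the 4 groups, and not on the 2 groups compared alone. Fold changes on this scale understate those of low genes. Benjamini-Hochberg adjustment ran over all kept genes separately for the 6 comparisons, and the threshold was 0.05. The design had named this test for values that are not counts, and the fit was tested on simulated data. Positions and exon lengths are from GENCODE M21, to which 99.56% of gene IDs matched.

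Members and lists were chosen with earlier results of these data known. Members are described, and although the fit included them, nothing is read from their calls. From each pathway list, up to 4 called genes with the smallest adjusted p per comparison were named, and others where the text needed them. For each member, up to 2 genes with the highest Pearson r were named, and 1 of these is not reported here. Replicate numbers come from the titles. Deviations from group means of same-numbered libraries correlated at 0.6, 0.32, 0.38, 0.49, 0.52 and 0.74 over the 6 pairs of groups. The main fit used treatment group only and ignored this pairing. The numbers entered as pairs only in the fit with the replicate block and in the differences within replicate numbers. The alternatives were a pseudocount of 0.1, no filter, median-of-ratios scaling, a replicate block and leaving out each library, 12 fits in all.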

Additional observations from a re-analysis of the deposited data

Results flagged for a closer look

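Igfbp4 drew attention because every library moved one way with BMP4 under the inhibitor and the other way with BMP4 on top of TGFb1. The interaction was 2.75 on the log2 scale with an SE of 0.78. It was not among the calls of the main limma fit at adjusted p under 0.05. Nothing is read from that, since Igfbp4 was selected with these values known.

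Adam12 drew attention because its response to BMP4 differed between the inhibitor and TGFb1 by an interaction test (log2 -1.21, limma adjusted p = 0.0475), a call that leaving out any 1 library removed.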

How the results depend on the processing

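The number of calls depended most on the settings. Of the members' log2 differences, 0 of 216 values changed sign under the 4 alternatives that kept all libraries. In this balanced design, dropping the filter or adding the replicate block cannot alter a fitted difference. Only the pseudocount and the scaling could therefore change a sign. Nor can leaving out a library alter a difference between groups that do not hold it. With 1 library left out, 22 of 420 values changed sign, in 12 of the 54 differences, all of them smaller than the spread of the replicates. Against the inhibitor these were Igf2 with TGFb1 (0.77, and -0.22 without TGFb1 replicate 2), Igfbp4 with TGFb1 (-0.25, and 0.20 without inhibitor replicate 2 or 0.27 without TGFb1 replicate 1) and Igfbp6 with BMP4 + inhibitor (0.55, and -0.23 without BMP4 + inhibitor replicate 2). Igf1 failed the filter without TGFb1 replicate 2 or TGFb1 + BMP4 replicate 2 and has no value there. Of 54 such values (9 genes in 6 comparisons), 9 moved by more than the replicate spread with a pseudocount of 0.1, all for Igf1 or Igfbp2, and 1 moved with median-of-ratios scaling, Igf1r in TGFb1 + BMP4 against TGFb1.

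Called pathway genes for BMP4 + inhibitor against the inhibitor numbered 9, against 3 with no filter and 17 with the replicate block, and called genes of all kinds 1360, against 751 and 3502. For TGFb1 against the inhibitor, 16 pathway genes became 30 with the block. For TGFb1 + BMP4 against TGFb1, 1 pathway gene became 0 with no filter, 2 with median-of-ratios scaling and 4 with the block, and 326 genes in all became 80 with no filter and 1121 with the block. For TGFb1 + BMP4 against BMP4 + inhibitor, 13 pathway genes became 25 with the block. For the interaction, 1 pathway gene became 0 with no filter, 0 with median-of-ratios scaling and 5 with the block, and 208 genes in all became 27 with no filter and 1117 with the block. The cause was not tested.

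With 1 library left out, the pathway and total counts ranged from 2 to 13 and from 170 to 2246 for BMP4 + inhibitor, from 8 to 20 and from 3079 to 6528 for TGFb1, and from 13 to 24 and from 4429 to 7533 for TGFb1 + BMP4, each against the inhibitor. They ranged from 0 to 1 and from 12 to 313 for TGFb1 + BMP4 against TGFb1, from 5 to 11 and from 2433 to 3888 against BMP4 + inhibitor, and from 0 to 2 and from 0 to 557 for the interaction. For BMP4 + inhibitor the pathway count was 3 without inhibitor replicate 1, 2 without inhibitor replicate 2 and 3 without BMP4 + inhibitor replicate 1. A lone library was assumed to vary like the other groups. The pathway genes called in all 12 alternatives were 2 of 9 with BMP4 + inhibitor (Adam12 and Crim1), 6 of 16 with TGFb1, 10 of 24 with TGFb1 + BMP4, each against the inhibitor, and 3 of 13 for TGFb1 + BMP4 against BMP4 + inhibitor.

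Scaling shifted the median of all genes from 0.13 to 0.01 for TGFb1 + BMP4 against the inhibitor. All genes higher and lower there numbered 4469 and 2980, or 3450 and 3694 with median-of-ratios scaling. Against BMP4 + inhibitor they numbered 2797 and 1759, or 1927 and 2074, and against TGFb1 149 and 177, or 94 and 224. Levels near 0.15 CPM, such as Igfbp2 without the inhibitor and Igf1, are limited by depth, which is unknown.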
